A study of Mus musculus with 13 samples.

Results

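Cytochrome c oxidase assembly factors are proteins that build the terminal enzyme of the respiratory chain, complex IV, without being part of the finished enzyme. Their genes were followed in gastrocnemius muscle of obese mice treated with semaglutide alone or with a ketone ester. The members were taken by symbol, as the 10 genes Cox10, Cox15, Cox17, Sco1, Sco2, Cox11, Taco1, Cox14, Surf1 and Cox20 of the 21868 genes in the deposited table. All 10 were in the table, and all 10 had a mean normalized count of at least 10 over the mice, the minimum set for testing a gene, which 12303 genes reached.

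Complex IV passes electrons from cytochrome c to oxygen. Its catalytic core is made of COX1, COX2 and COX3, which are encoded by mitochondrial DNA, and its other subunits are nuclear-encoded. It carries heme A and copper, which must be made or delivered inside the mitochondrion while the enzyme is built. Muscle fibers are rich in the enzyme, and inherited defects of several of its assembly factors affect muscle, heart and brain.

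RNA-seq was performed on gastrocnemius from 13 male C57BL/6N mice in 3 groups, which entered the study at 7 weeks of age and had 1 week to acclimatize. All mice, the vehicle group included, received a diet with 60% of its calories as fat for 15 to 17 weeks and were then changed to standard chow, so that no lean or untreated group was measured here. Treatment lasted 3 weeks and consisted of phosphate-buffered saline with placebo (vehicle, mice 1 to 5), semaglutide, a GLP-1 receptor agonist, at 30 nM/kg per day by intraperitoneal injection with placebo (mice 13 to 17), or semaglutide at that dose together with drinking water that held 0.114 g/mL of ketone ester (mice 19, 21 and 22). Each library came from 1 mouse, and the labels give the same batch for all of them.

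Values are normalized counts, reads per gene divided by a factor for each library. Between 15319471 and 23498162 reads were counted on genes per mouse. The least covered member was Sco2, with 72 to 211 reads per mouse, and Cox14, one of the best covered, had 650 to 1185 reads. Along the first principal component of all genes tested, which held 38.1% of the variance, semaglutide mouse 13 scored -9.12, whereas mice 14 to 17 scored 31.8 to 52.5 and the vehicle-treated mice -24.5 to -12.8. Results are therefore also given without mouse 13. This mouse was picked from these same values for its nearness to vehicle, so leaving it out tends to widen the semaglutide differences. Adjusted p values without it are descriptions only. All 6 skeletal muscle fiber markers (Ckm, Acta1, Myh4, Tnnt3, Mb and Actn3) were detected in each group. Their summed normalized count was 2298425 to 2848180 under vehicle, 1451753 to 2692602 under semaglutide and 2963349 to 3490991 with ketone ester, and 1 of the 6 was higher and 1 lower under semaglutide than vehicle while 3 were higher with ketone ester than semaglutide. Markers of other cells also moved with the groups. Of 5 fibroblast markers, 4 were lower under semaglutide than vehicle, with summed normalized counts of 5119.6 to 11723 under vehicle, 4625 to 6371 under semaglutide and 6644 to 11019 with ketone ester, where 3 were higher than under semaglutide. Of 5 tendon markers, 3 were lower under semaglutide than vehicle, and with ketone ester 3 were higher and 1 lower than under semaglutide, with sums of 1253 to 6717, 745 to 2713 and 3234 to 3991 in the 3 groups. All 5 red blood cell markers were higher with ketone ester than with semaglutide alone, with sums of 1356 to 2291, 50.5 to 3148 and 2849 to 5558 in the same order. The same held for 3 of 5 endothelial markers, with sums of 3225 to 3875, 3278 to 3715 and 3572 to 4162, whereas no adipocyte, leukocyte or Schwann cell marker passed in either comparison. The part of these markers in the results was not tested. In RNA from whole muscle, fewer cells of a type and less RNA per cell cannot be told apart.

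The 10 genes lie on several chromosomes, and 4 of them on chromosome 11. In the GRCm38 assembly, with the GENCODE vM21 annotation, Taco1 spans chr11:106066061-106073612 on the plus strand, Cox14 chr15:99725618-99728136 (plus), Sco1 chr11:67052670-67067070 (plus), Cox11 chr11:90638173-90644931 (plus) and Cox20 chr1:178319130-178322693 (plus). Cox10 spans chr11:63962627-64079468 on the minus strand, Cox15 chr19:43733254-43753000 (minus), Sco2 chr15:89371637-89373846 (minus), Surf1 chr2:26913381-26916530 (minus) and Cox17 chr16:38346991-38352763 (plus).

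Promoter sequence from RefSeq (GRCm38.p6, 250 bases before to 50 after the start of transcription) was at hand for 9 of the 10 genes, Cox17 being the other one. These windows were searched on both strands for 5 motifs of factors known for control of respiratory chain genes: CCGGAAG for the ETS factor GABP, GCGCATGCG for NRF1, AAGATGGCG for YY1, TCAAGGTCA for estrogen-related receptors and TGACGTCA for CREB. None of these motifs overlaps another within the windows shown. The ETS motif was present in 6 of the 9 promoters (Cox10, Cox15, Sco1, Cox14, Surf1 and Cox20), compared with 8.86% of all 32851 promoter windows of that length. The windows of the 9 genes held 54.3% to 70.7% G and C, where the median of all windows was 52.7%. All windows were used, without matching for base composition or for expression in muscle. The YY1 motif was present in Cox10 and in 1.40% of all windows, and the NRF1, receptor and CREB motifs, held by 1.75%, 0.423% and 1.79% of all windows, were in none of the 9. The central part of 6 promoters, 60 bases before to 50 after the start, is shown with any motif in capitals. The 4 genes that were lower under semaglutide come first. A pair chosen for display that did not pass that test, Cox10 and Surf1, follows. Both of the pair hold the ETS motif, whereas Sco2, which did not pass either, does not.
Taco1, chr11:106066031-106066140, plus strand: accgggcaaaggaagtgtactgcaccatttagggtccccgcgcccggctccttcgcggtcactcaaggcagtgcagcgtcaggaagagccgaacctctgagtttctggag
Cox14, chr15:99725558-99725667, plus strand: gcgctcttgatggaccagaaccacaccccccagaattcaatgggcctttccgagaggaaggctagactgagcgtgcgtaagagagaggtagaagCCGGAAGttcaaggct
Sco1, chr11:67052610-67052719, plus strand: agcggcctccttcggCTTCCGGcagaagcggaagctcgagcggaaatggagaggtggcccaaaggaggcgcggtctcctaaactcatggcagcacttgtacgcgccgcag
Cox11, chr11:90638124-90638233, plus strand: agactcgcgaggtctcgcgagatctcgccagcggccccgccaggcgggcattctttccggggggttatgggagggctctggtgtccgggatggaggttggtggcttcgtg
Cox10, chr11:64079423-64079532, minus strand: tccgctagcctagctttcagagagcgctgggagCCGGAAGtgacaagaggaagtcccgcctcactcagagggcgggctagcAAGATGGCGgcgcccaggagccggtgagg
Surf1, chr2:26916481-26916590, minus strand: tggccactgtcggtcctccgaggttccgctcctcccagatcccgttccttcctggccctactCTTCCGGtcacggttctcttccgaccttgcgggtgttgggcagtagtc
In Sco1 and Surf1 the ETS motif reads CTTCCGG, on the opposite strand. The motif was thus found in genes on both sides of the test described next, and Taco1, Cox11 and Sco2 held none of the 5. A match of letters is a description of the sequence only, and binding was not measured.

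To compare levels between genes, normalized counts were divided by the length of the longest principal transcript in kilobases. With this length, Cox14 had the highest level in vehicle-treated mice, 1525 ± 61.6 normalized counts per kilobase (SD, n = 5), and Sco1 the lowest, 57.7 ± 4.79. Taco1, Cox20, Cox10 and Surf1 followed Cox14 in that order, at 428, 399, 339 and 309 normalized counts per kilobase, and the range over mice of each overlapped that of the next among these 4. Cox11 (245), Cox17 (211), Cox15 (124) and Sco2 (88.9) came below them, with ranges that did not overlap their neighbors. Cox17 depends on the transcript chosen, since its principal transcripts measure 444 and 3690 bases. With the shorter one its level was 1752 normalized counts per kilobase. Its vehicle-treated mice, at 1662 to 1795, then lay above those of Cox14, at 1459 to 1614. All ranks given here use the longer transcript. Under semaglutide, Taco1 was at rank 5 in place of rank 2, at 223 ± 89.2, with mice that overlapped those of Surf1 above and Cox17 below it. With ketone ester it was at rank 3, at 487 ± 83.6 (SD, n = 3).

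Semaglutide-treated mice had lower mRNA levels than vehicle-treated mice for 4 of the 10 assembly factors, Taco1, Cox14, Sco1 and Cox11, and for none a higher level. Across all genes tested, 13.9% were lower and 12.5% were higher by the same test. Taco1 was 0.493 times the vehicle level and the other 3 genes between 0.734 and 0.767 times. Addition of the ketone ester gave levels higher than semaglutide alone for 4 of the 10, Taco1, Cox14, Cox11 and Cox20, where 10.0% of all genes were higher and 10.7% lower. No member passed between semaglutide + ketone ester and vehicle. Only the calls of Taco1 and Cox14 held in all 13 fits with 1 mouse left out. That of Sco1 was kept in 7, that of Cox20 in 4 and each of the 2 for Cox11 in 2. Differences are on the scale of log2(normalized count + 1), with their standard error (SE) from limma, and the adjusted p is by the Benjamini-Hochberg method over the 12303 genes with a threshold of 0.05. The first 2 comparisons share the semaglutide-treated mice, so their values are given side by side and are not independent of each other.

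**Figure D1:**
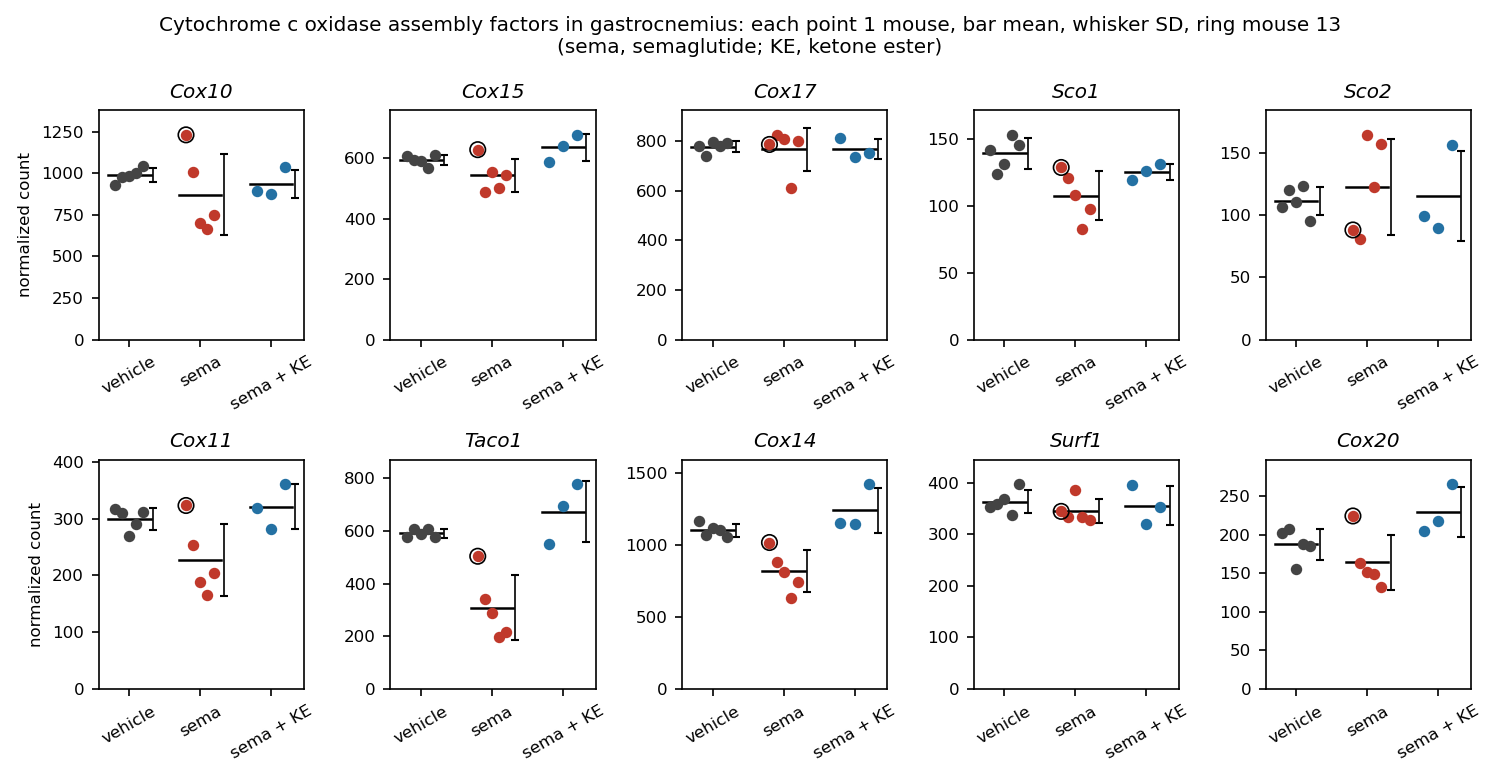
Normalized counts (y axes, each from 0) of the 10 assembly factor genes in each of 13 mice by group, with the mean as a bar, the SD as a whisker and mouse 13 ringed. Taco1 and Cox14 are the genes in which every semaglutide-treated mouse lies below every mouse of the other groups, and mouse 13 is the highest of the semaglutide group in 7 of 10 panels.

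Heme A is made from heme B in 2 steps, by COX10, the farnesyltransferase that yields heme O, and by COX15, which converts heme O to heme A. Normalized counts of Cox10 were 929, 980.0, 982, 1005 and 1047 in vehicle mice 1 to 5. They were 1232, 1011, 699.8, 663 and 750.4 in semaglutide mice 13 to 17, and 894, 878 and 1036 in semaglutide + ketone ester mice 19, 21 and 22. Mouse 13 was the highest of all mice for this gene, mouse 14 lay within the vehicle range and mice 15 to 17 lay below it. The mean was 989 ± 42.6 in vehicle-treated (SD, n = 5), 871 ± 243 in semaglutide-treated (n = 5) and 936 ± 86.9 in semaglutide + ketone ester-treated mice (n = 3). Cox10 differed from vehicle by -0.22 (SE 0.14, 95% interval -0.53 to 0.09, adjusted p = 0.274) under semaglutide. Without mouse 13 that difference was -0.36 with an adjusted p of 0.0170. Between semaglutide + ketone ester and semaglutide, Cox10 differed by 0.14 (95% interval -0.21 to 0.50, adjusted p = 0.585).

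Cox15 stood at 605, 594, 589, 567 and 610.1 in the vehicle-treated mice. Semaglutide mice 13 to 17 had 628, 488, 554, 501 and 542, and the ketone ester mice 588, 640.2 and 677. Mouse 13 lay above the vehicle range, and the other 4 semaglutide-treated mice lay below it. The difference of -0.13 between semaglutide and vehicle did not pass (SE 0.079, 95% interval -0.30 to 0.04, adjusted p = 0.235). That between semaglutide + ketone ester and semaglutide was 0.23 (SE 0.091, 95% interval 0.03 to 0.43, unadjusted p = 0.0247, adjusted p = 0.0885), and became 0.28 with an adjusted p of 0.0150 without mouse 13. Neither heme A synthesis gene therefore passed the test in the full set of mice.

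Copper is handed on by COX17, a small protein of the intermembrane space, to SCO1 and SCO2, which serve the copper site of COX2, and to COX11, which serves that of COX1. Of these 4 genes, Sco1 and Cox11 were lower under semaglutide (13.9% of all genes were) and Cox11 was higher with the ketone ester (10.0% of all genes were). Cox17 was 778, 738, 797, 782 and 794 in vehicle-treated mice, 786, 825, 809.8, 612 and 799 in semaglutide-treated mice, and 813, 736 and 753 in semaglutide + ketone ester-treated mice. The groups lay on top of each other apart from mouse 16, and the 3 means, 778, 766 and 767, were within the spread of any group. Its differences were -0.03 (95% interval -0.21 to 0.15, adjusted p = 0.830) for semaglutide and 0.0087 (95% interval -0.20 to 0.22, adjusted p = 0.962) for the addition of ketone ester.

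Sco1 had normalized counts of 142, 124, 131, 153 and 146 in vehicle-treated mice. The counts were 129, 121, 108, 82.5 and 97.7 in mice 13 to 17, and the ketone ester group had 119, 126 and 131. Mouse 13 alone of the semaglutide group reached the vehicle range, and the ketone ester mice lay between the lowest vehicle values and the semaglutide values, overlapping both. Sco1 was lower under semaglutide by a log2 difference of -0.38 (SE 0.12, adjusted p = 0.0334). This call was kept in 7 of 13 fits with 1 mouse left out and lost without mouse 1, 4, 5, 15, 16 or 17, with adjusted p between 0.0584 and 0.0815. The difference between semaglutide + ketone ester and semaglutide was 0.23 (95% interval -0.07 to 0.54, adjusted p = 0.258).

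Sco2, the paralog of Sco1, had 106, 120.4, 110.1, 123 and 95.5 in vehicle-treated mice, 88.0, 81.1, 164, 122 and 157 in semaglutide-treated mice, and 99.6, 89.4 and 156 in semaglutide + ketone ester-treated mice. Here mice 13 and 14 were the low ones and mice 15 and 17 the high ones, whereas mice 13 and 14 were the highest of the group for Sco1 and Cox11. The SD was 31.2% of the mean under semaglutide and 10.0% in vehicle-treated mice. Differences of 0.09 (95% interval -0.35 to 0.53, adjusted p = 0.784) and -0.08 (95% interval -0.59 to 0.44, adjusted p = 0.854) for the same pair of comparisons were well inside this spread.

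Cox11 counts were 317, 311, 269.7, 291 and 311 in vehicle-treated mice. In the semaglutide group they were 323, 254, 188, 166 and 204, and with ketone ester 319, 281 and 361. Mice 14 to 17 all lay below the lowest vehicle-treated and the lowest ketone ester-treated mouse, while mouse 13 lay above the highest vehicle-treated mouse. Semaglutide differed from vehicle by -0.44 (SE 0.15, adjusted p = 0.0453) and semaglutide + ketone ester from semaglutide by 0.53 (SE 0.17, adjusted p = 0.0446). Both calls lie close to the threshold. Each was kept in only 2 of 13 fits with 1 mouse left out, those without mouse 13 or 14, and with any other mouse left out the adjusted p was 0.0518 to 0.109 for the first and 0.0543 to 0.178 for the second. Without mouse 13 the differences were -0.58 and 0.67, with adjusted p of 0.00167 and 0.00171.

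COX1, the largest core subunit, needs TACO1 to activate its translation in mitochondria, COX14 to hold the newly made protein in the first assembly intermediates and SURF1 at an early step at which COX1 is matured. Taco1 showed the largest difference of the 10 genes in the first 2 comparisons. It had 578, 609, 587, 609 and 575 normalized counts in vehicle-treated mice, a spread of 2.79% of the mean. The semaglutide-treated mice had 504, 340.3, 288, 196 and 216, with an SD of 40.0% of the mean, and the semaglutide + ketone ester-treated mice 549, 693 and 778. Every semaglutide-treated mouse was below every vehicle-treated and every ketone ester-treated mouse, and mouse 13 was the nearest to them. Taco1 was lower under semaglutide by a log2 difference of -1.02 (SE 0.20, 95% interval -1.45 to -0.59, adjusted p = 0.00256). With ketone ester, Taco1 was 2.29 times the semaglutide level, a log2 difference of 1.19 (SE 0.23, 95% interval 0.70 to 1.69, adjusted p = 0.00332). Both calls held in 13 of 13 fits with 1 mouse left out, and without mouse 13 the differences were -1.22 and 1.39.

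Cox14 had 1167, 1068, 1119, 1105 and 1055 normalized counts in vehicle-treated mice. It had 1018, 886, 815, 631 and 744 in semaglutide-treated mice, and 1154, 1149.9 and 1424 in semaglutide + ketone ester-treated mice. As for Taco1, the semaglutide group lay wholly below both others, and mouse 13 was its highest and mouse 16 its lowest member. The log2 difference was -0.45 (SE 0.11, adjusted p = 0.0102) for semaglutide against vehicle and 0.61 (SE 0.13, adjusted p = 0.00527) for semaglutide + ketone ester against semaglutide. All 13 fits with a mouse left out kept both. In each of these comparisons, Taco1 and Cox14 were thus the 2 of 10 members whose groups did not overlap. In the first, 7.45% of all genes had every semaglutide-treated mouse below every vehicle-treated mouse. In the second, 9.96% had every semaglutide + ketone ester-treated mouse above every semaglutide-treated mouse. The share of all genes apart in both was not counted.

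Surf1 gave values of 354, 359, 369, 337 and 397 in the vehicle group, 344, 334, 385, 333 and 327 in the semaglutide group, and 395, 319 and 352 with ketone ester. All groups overlapped, and here mouse 15, not mouse 13, was the highest under semaglutide. The difference from vehicle under semaglutide was -0.07 (SE 0.083, 95% interval -0.25 to 0.10, adjusted p = 0.541), and that of semaglutide + ketone ester from semaglutide was 0.04 (95% interval -0.16 to 0.25, adjusted p = 0.803).

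Newly made COX2 is kept ready for its copper by COX20, which works with SCO1 and SCO2. Cox20 is also a transcript that the study followed by RT-qPCR in gastrocnemius, a measurement not used here. Its normalized counts were 203, 207, 156, 188 and 185 in vehicle-treated mice, 224, 163, 152, 149 and 133 in semaglutide-treated mice, and 205, 217 and 266 in semaglutide + ketone ester-treated mice. Mouse 13 was higher than every vehicle-treated mouse, mouse 14 lay within the vehicle range and mice 15 to 17 lay below it. The difference from vehicle was -0.21 (SE 0.14, 95% interval -0.50 to 0.09, adjusted p = 0.283) under semaglutide and -0.33 with an adjusted p of 0.0361 without mouse 13. Semaglutide + ketone ester exceeded semaglutide by 0.49 (SE 0.16, adjusted p = 0.0400). That call was kept without mouse 1, 2, 3 or 13 and lost without any of the other 9 mice, with adjusted p of 0.0512 to 0.185.

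**Figure D2:**
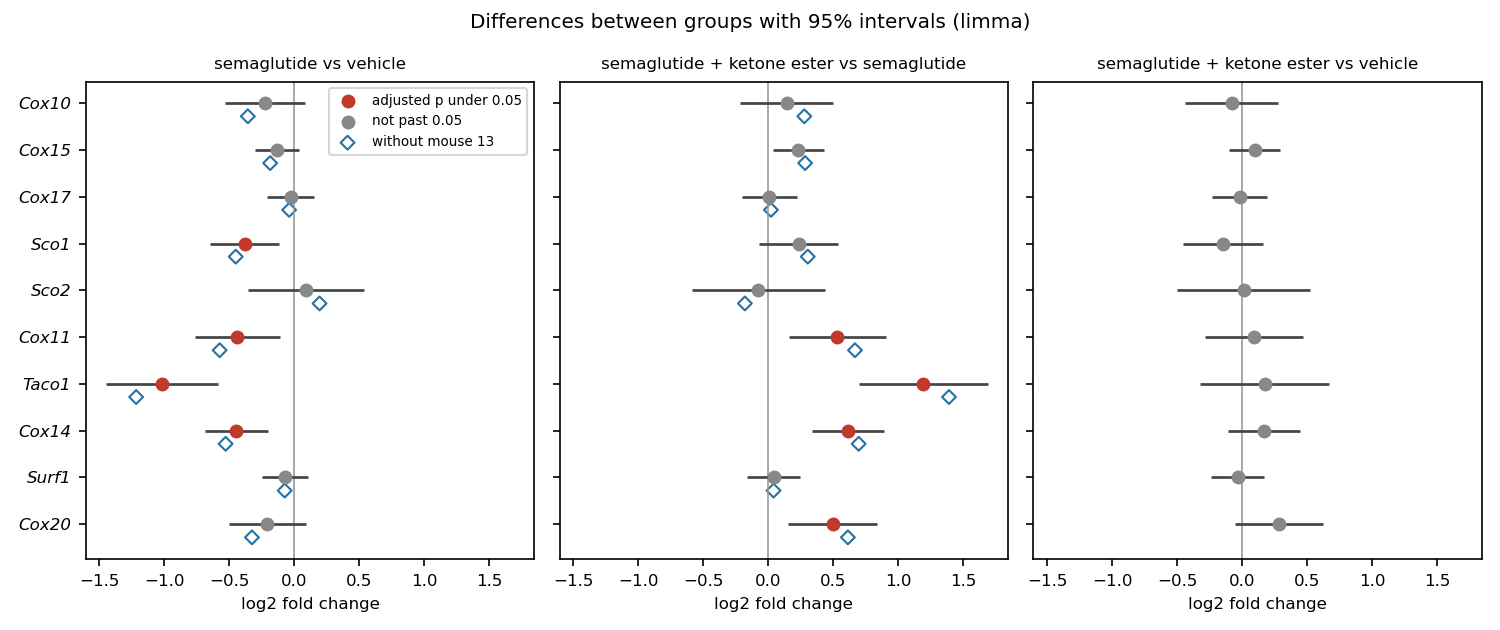
Log2 fold change (x axis) of each assembly factor gene (y axis) in the 3 comparisons, with 95% intervals as lines, red points where the adjusted p was under 0.05, grey points where it was not, and open diamonds for the first 2 comparisons without mouse 13. Taco1 lies farthest from 0 in the first 2 panels, at -1.02 and 1.19, and every interval of the right-hand panel includes 0.

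Over the 10 genes, the median log2 difference between semaglutide and vehicle was -0.22, while that of all genes tested was -0.0029. The difference was negative in 9 of the 10, Sco2 being the exception, although Cox15, Cox17 and Surf1 turned positive when libraries were scaled to equal totals, which moved the median of all genes to 0.17. Without mouse 13, 6 of the 10 were lower (Cox10 and Cox20 in addition), where 19.5% of all genes were, in place of 13.9%. For semaglutide + ketone ester against semaglutide the median was 0.23 over the 10 genes and -0.00024 over all genes. It was positive in 9 of the 10, but with equal totals, which shifted all genes by -0.24, Cox10, Cox15, Cox17, Sco1 and Surf1 turned negative. Under that scaling 2 members, Taco1 and Cox14, were higher with ketone ester and Cox17 was lower (-0.23, adjusted p = 0.0369). Equal totals also turned the balance of all genes, to 3351 higher and 985 lower for semaglutide against vehicle, in place of 1540 and 1715, and to 637 higher and 3715 lower for semaglutide + ketone ester against semaglutide, in place of 1234 and 1312. Without mouse 13, 5 of the 10 were higher (Cox15 in addition), where 16.4% of all genes were, in place of 10.0%.

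The comparison of semaglutide + ketone ester with vehicle asks how near the treated group came to the controls. None of the 10 genes passed in limma, edgeR or DESeq2, and none had an unadjusted p under 0.05 in limma. This was a comparison of 3 with 5 mice in which 0.0975% of all genes were higher and 0.268% lower. The differences ranged from -0.15 for Sco1 (95% interval -0.45 to 0.16) to 0.29 for Cox20 (95% interval -0.05 to 0.63). For Taco1 the difference was 0.17, with an interval from -0.32 to 0.67, so that a level well above or somewhat below vehicle is compatible with these mice. The interval for Cox14 ran from -0.11 to 0.44 and that for Cox11 from -0.28 to 0.47.

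Altered genes were also sought with the thresholds of the study, a one-way analysis of variance over the 3 groups with p under 0.05 and a change of at least 1.5-fold. The change was taken here as the highest over the lowest group mean, which is a choice of this calculation, and Taco1 and Cox14 met both parts. These are 2 of 10 members, and 16.1% of all genes tested met them. The ratio of the highest to the lowest group mean was 2.18 for Taco1 and 1.52 for Cox14. Cox11, Cox20, Sco1 and Cox15 met the part on p but not that on size, with ratios of 1.41, 1.40, 1.29 and 1.17. The share of all genes that met the part on p alone is not given here. In limma, 4784 of the 12303 genes had an unadjusted p under 0.05 for semaglutide against vehicle, so meeting that part was common.

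Individual mice carried much of the spread. Mouse 13 had the highest value of the semaglutide group for 7 of the 10 genes, and mouse 16 the lowest for 6, which were also the lowest of all 13 mice. Within the ketone ester group, mouse 22 was highest for 8 genes. Over all genes, mouse 16 also had the lowest sum of normalized counts of all mice (1.49e+07) and mouse 22 the highest (2.06e+07). The part of these sums in the ranks was not tested. When each gene was set against its vehicle mean on the log2 scale and averaged over the 10 genes, the vehicle-treated mice lay between -0.04 and 0.02. Mice 13 to 17 had means of -0.0064, -0.25, -0.27, -0.54 and -0.37, and mice 19, 21 and 22 had -0.02, -0.03 and 0.21. Mouse 13 was therefore within the vehicle range for the average and the other 4 semaglutide-treated mice were below it. Taken without Taco1, the same averages under semaglutide ranged from -0.43 to 0.02, so that on this scaling the low values were not those of Taco1 alone. The averages were not taken with equal totals, which moved the median difference of all genes between semaglutide and vehicle from -0.0029 to 0.17.

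**Figure D3:**
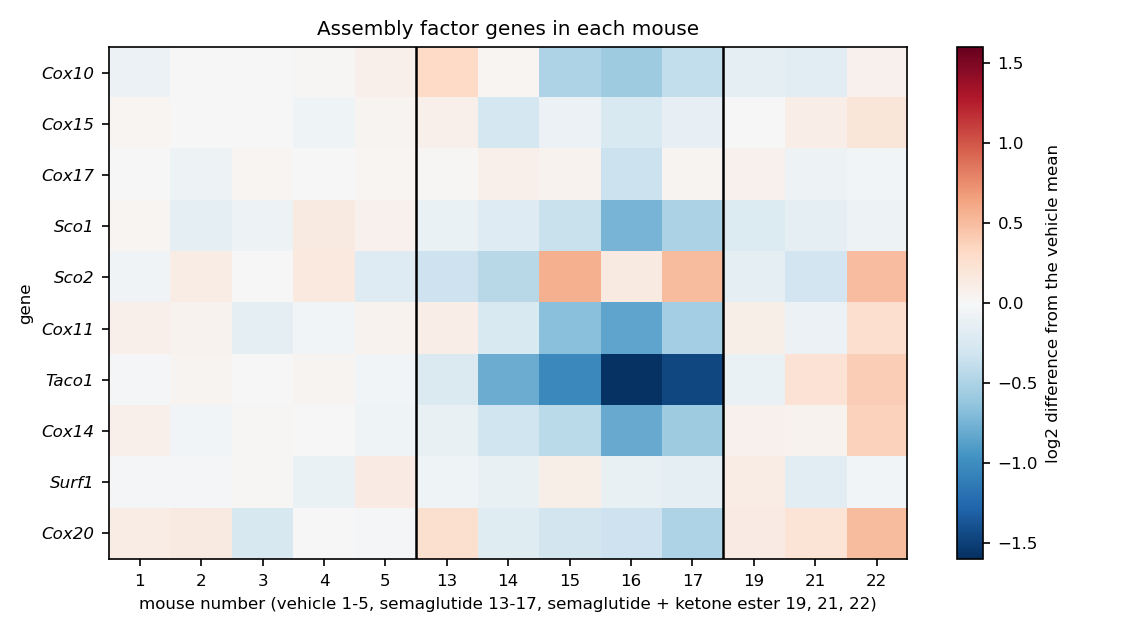
Log2 difference from the vehicle mean (color, from -1.6 in blue to 1.6 in red) of each assembly factor gene (rows) in each mouse (columns, by number), with lines between the 3 groups. Taco1, Cox14, Cox11 and Sco1 are blue in mice 14 to 17, Cox11 is pale in mouse 13, and Sco2 is red in mice 15, 17 and 22.

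A wider list of 26 other genes of complex IV biogenesis was examined in the same way, of which 25 were in the table and 24 were tested. Under semaglutide 7 of the 24 were lower than vehicle and none was higher, where 13.9% and 12.5% of all genes were, with a median log2 difference of -0.20. With equal totals the balance was 3 lower and 3 higher. The largest differences were those of Coa5 (-0.77, SE 0.13, adjusted p = 0.00111), Higd2a (-0.65, SE 0.095, adjusted p = 0.000355) and Cmc2 (-0.63, SE 0.20, adjusted p = 0.0335). COA5 and CMC2 are small assembly proteins and HIGD2A acts as the COX3 module joins the enzyme. With ketone ester, 7 of the 24 were higher than under semaglutide and 2 lower, where 10.0% and 10.7% of all genes were, but with equal totals 3 were higher and 5 lower. The higher genes were led by Coa5 (0.79, SE 0.15, adjusted p = 0.00319), Cmc2 (0.75, SE 0.24, adjusted p = 0.0370) and Tmem177 (0.72, SE 0.13, adjusted p = 0.00186). TMEM177 is a partner of COX20. The Cmc2 calls were lost without mouse 1, 3, 4, 5, 15, 16 or 17 in the first comparison and without mouse 15, 17, 19, 21 or 22 in the second, with adjusted p up to 0.0822 and 0.151.

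The 2 genes of this list that went the other way were lower with ketone ester than with semaglutide alone. Cox19, whose product works with COX11 in copper delivery, ranged from 404 to 477 under semaglutide and from 315 to 389 with ketone ester, without overlap. Its log2 difference was -0.40 (SE 0.11, adjusted p = 0.0173), the opposite sign to Cox11. Coa4, a small protein of the intermembrane space, fell by 0.50 on the log2 scale (SE 0.15, adjusted p = 0.0348), from 81.1 to 122 under semaglutide to 62.8 to 78.9 with ketone ester. The Cox19 call was lost without mouse 21 or 22 (adjusted p of 0.0797 to 0.0915) and that of Coa4 without mouse 15, 16, 17, 21 or 22 (0.0594 to 0.158).

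For comparison, 18 of 19 structural subunit genes of complex IV were tested, and 14 were lower under semaglutide, where 13.9% of all genes were, with a median log2 difference of -0.52. With equal totals 13 were lower. Cox7a1, the heart and muscle isoform of subunit VIIa, ranged from 1739.7 to 2177 normalized counts in vehicle-treated mice, from 513 to 738 in semaglutide-treated mice and from 1665 to 2417 with ketone ester. It differed by -1.64 (SE 0.12, adjusted p = 6.26e-06) and then by 1.62 (SE 0.14, adjusted p = 0.000108). The mitochondrial genes mt-Co3 and mt-Co1, which encode COX3 and COX1, were lower under semaglutide by log2 differences of -0.81 (SE 0.12, adjusted p = 0.000473) and -0.79 (SE 0.20, adjusted p = 0.00942). With ketone ester, mt-Co3 was higher than under semaglutide by 0.63 (SE 0.14, adjusted p = 0.00739). The difference of mt-Co1, 0.63, did not pass (SE 0.23, adjusted p = 0.0605). With ketone ester 13 of the 18 subunit genes were higher than under semaglutide, where 10.0% of all genes were, with a median of 0.61, and with equal totals 10 were higher and 1 lower. Cox5b (0.80, SE 0.12, adjusted p = 0.000756) and Cox5a (0.74, SE 0.13, adjusted p = 0.00179) followed Cox7a1. None of the subunit genes or the other biogenesis genes passed between semaglutide + ketone ester and vehicle, where 1 of the biogenesis genes had an unadjusted p under 0.05 and none of the subunit genes had one.

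Averaged per mouse in the same way as the assembly factors, the subunit genes lay 0.52 log2 units below vehicle under semaglutide (SD 0.12, n = 5), and the other biogenesis genes 0.17 below (SD 0.13). The 10 assembly factors were 0.29 below (SD 0.20). These averages use the deposited scaling only, and equal totals moved the median difference of all genes between semaglutide and vehicle from -0.0029 to 0.17. Mouse 13 had a mean of -0.45 over the subunit genes, inside the range of the other semaglutide-treated mice, and of -0.0064 over the assembly factors. The 13 protein-coding mitochondrial genes took 17.2% to 19.9% of reads on genes in vehicle-treated, 11.4% to 13.7% in semaglutide-treated mice and 15.6% to 17.0% with ketone ester. These lists hold different genes and were not tested against each other.

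**Figure D4:**
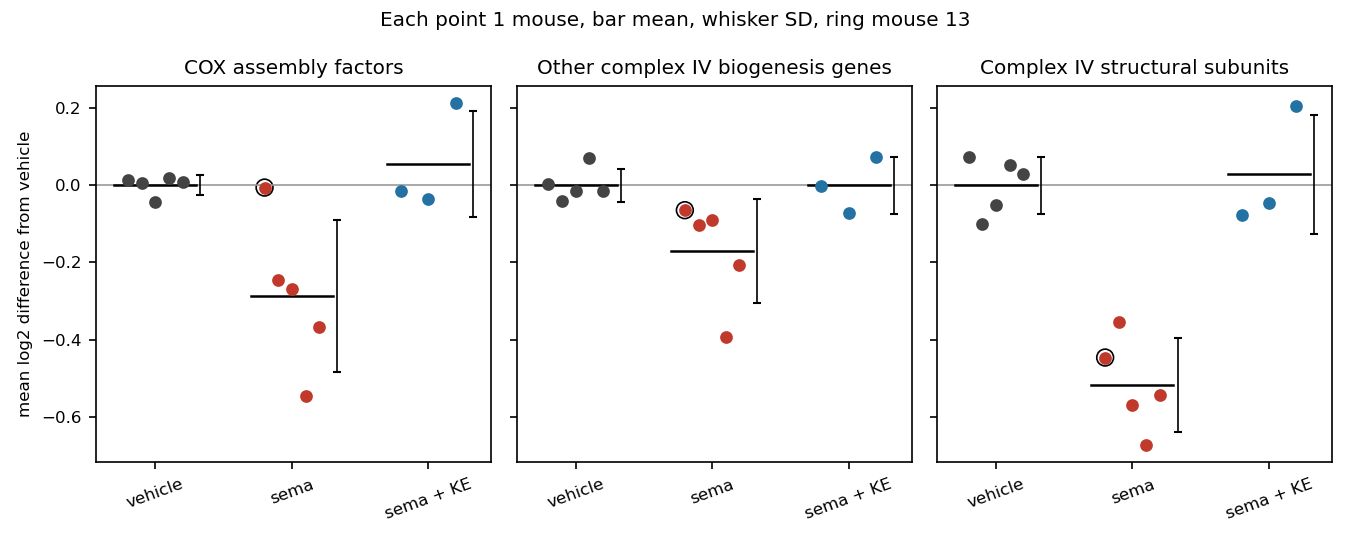
Mean log2 difference from vehicle (y axis) over the 10 assembly factor genes, 24 other biogenesis genes and 18 structural subunit genes in each mouse by group, with the group mean as a bar, the SD as a whisker and mouse 13 ringed. Mouse 13 lies at -0.0064 for the assembly factors and at -0.45 for the structural subunits.

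Exons of 6 of the members share bases with another gene of the table, and the sources do not say whether reads were counted by strand, so reads in the shared stretches cannot be told apart. Cox20 shares 804 exon bases with Hnrnpu on the opposite strand, an abundant gene with 2632 to 3095 normalized counts in vehicle-treated and 2906 to 5154 in semaglutide-treated mice. Hnrnpu was higher under semaglutide by 0.60 (SE 0.13, adjusted p = 0.00367) and lower with ketone ester by a difference of -0.55 (SE 0.14, adjusted p = 0.0159), the reverse of the signs of Cox20. Cox11 shares 688 bases with Tom1l1 on the opposite strand, which differed by 0.29 (adjusted p = 0.128) and -0.39 (adjusted p = 0.0882), again opposite in sign to Cox11. Most of Sco2 is shared, with 856 bases in common with Tymp on its own strand and 829 with Ncaph2 on the other strand, of 1253 exon bases in all. Ncaph2 was higher under semaglutide by 0.25 (SE 0.076, adjusted p = 0.0248), and Sco2 values are uncertain for that reason. Cox15 shares 444 bases with Entpd7, Surf1 137 with Surf2 and Cox17 257 with Gm21987, which was at 0 in every mouse. Surf2 was higher under semaglutide by 0.55 (SE 0.12, adjusted p = 0.00525). With ketone ester it differed from semaglutide by -0.41 (SE 0.14, adjusted p = 0.0541). The part of Surf2 reads in the Surf1 values was not tested. Entpd7 passed in neither comparison. Taco1, Cox14, Sco1 and Cox10 share exon bases with none of the genes in the table. Taco1 does share 245 exon bases with Taco1os, and Cox10 49 with 9630013K17Rik, antisense genes on the opposite strand that are not in the table. Whether reads from these were counted to Taco1 or Cox10 cannot be told.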

How the data were processed

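RNA was sequenced from gastrocnemius of 13 mice. According to the study's methods and the submitters' processing notes, the authors prepared stranded mRNA libraries, aligned paired-end reads to mm10 with DRAGEN and used DESeq2. The counting program, strand setting and gene annotation are not given in the sources used here. The deposited signal per gene is a normalized count, of which 100% of values were whole multiples of 1 step per mouse (tolerance 0.01 reads), so that reads could be recovered. From the deposited values, log2(normalized count + 1) was fitted with limma 3.58.1 (R 4.3.3, mean-variance trend, all 3 groups in 1 model) for genes with a mean of at least 10, with a 2-sided test of each pair of groups. The log2 scale with a pseudocount of 1 understates changes of low genes. On the recovered reads, edgeR 4.0.16 (quasi-likelihood, TMM) called 3310, 2557 and 45 genes for semaglutide against vehicle, ketone ester against semaglutide and ketone ester against vehicle, where limma called 3255, 2546 and 45. DESeq2 1.42.0 called 3577, 2935 and 172. The fitting code was tested on simulated data. At this depth the least covered members rest on fewer than 100 reads in some mice.

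Members and gene lists were chosen with earlier results of these data known, so their counts are descriptions and no list was tested as a set. All 10 members are named. Of the 2 other lists, the genes named are the 3 largest differences among those past the threshold in each comparison and any past it in the direction opposite to most of the list. Markers of muscle fibers, adipocytes, endothelium, fibroblasts, tendon, leukocytes, red blood cells and Schwann cells were examined. Alternatives were other pseudocounts, filters, scalings, weights and count models, and leaving out each mouse. Averages per mouse are means of log2 differences from the vehicle mean.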

Additional observations from a re-analysis of the deposited data

Results flagged for a closer look

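Among 20 sets of 5 mice (10 genes in the vehicle and the semaglutide group; the group of 3 was not examined), 1 held a mouse that stood apart from the rest by Dixon's criterion, where chance gives about 1 in 20. Cox17 was 612 in semaglutide mouse 16, the lowest of its group, and its gap to the next mouse was 0.819 of the range of the group, above the critical value of 0.71. The same mouse was the lowest of its group for 6 of the 10 genes. Without mouse 16 the difference of Cox17 between semaglutide and vehicle was 0.05 in place of -0.03, and it passed the threshold in neither.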

How the results depend on the processing

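Under the other settings, the assembly factors lower under semaglutide numbered 2 in place of 4 with no filter, equal totals, quantile normalization or only the 2 groups compared, and those higher with ketone ester 2 in place of 4 with no filter, only the 2 groups compared or equal totals, which also called 1 member, Cox17, lower. With 1 mouse left out they numbered 2 to 6 and 2 to 5, the highest without mouse 13. Taco1 and Cox14 passed under all 12 other settings and in all 13 fits with a mouse left out, in both comparisons. Of the 12 other settings, Sco1 passed against vehicle in 8, Cox11 in 5 and, with ketone ester, in 7, and Cox20 with ketone ester in 9. The altered members numbered 1 in place of 2 with equal totals, 6 without the fold criterion and 1 to 4 with a mouse left out. The shares of all genes under these settings are not given here, so these counts describe the members only. Of the other biogenesis genes, 15 in place of 7 passed against vehicle with sample weights, 3 of them higher, and 3 in place of 9 passed with ketone ester when only the 2 groups were compared. Leaving out a mouse gave 4 to 12 and 3 to 12. The cause was not tested.

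Several members changed sign, and of these reversed values 1 passed the test, that of Cox17 for ketone ester against semaglutide with equal totals (adjusted p = 0.0369). Semaglutide against vehicle with equal totals gave 0.041 for Cox15, 0.14 for Cox17 and 0.099 for Surf1, and sample weights gave 0.02 for Cox17. With a mouse left out, Cox17 ran from -0.058 to 0.050 and Sco2 from -0.030 to 0.22. Ketone ester against semaglutide with equal totals gave -0.10 for Cox10, -0.0075 for Cox15, -0.23 for Cox17, -0.0002 for Sco1 and -0.20 for Surf1, and sample weights -0.044 for Cox17. With a mouse left out, Cox17 ran from -0.070 to 0.038, Sco2 from -0.32 to 0.083 and Surf1 from -0.038 to 0.12. Ketone ester against vehicle with quantile normalization gave 0.015 for Cox17, -0.0015 for Sco2 and 0.0047 for Surf1. Sco2 was -0.050 with equal totals and -0.030 with sample weights. The ranges there were -0.062 to 0.0092 for Cox17, -0.23 to 0.17 for Sco2 and -0.11 to 0.040 for Surf1. No paired analysis was possible because the groups share no mouse numbers.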
